A study of Mus musculus with 24 samples.

Results

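The proteasome subunit genes are the constitutive building blocks of the cell's main protein-degrading machine. They were taken as every gene symbol made of Psma, Psmb, Psmc or Psmd and a number, without the interferon-inducible catalytic subunits Psmb8, Psmb9 and Psmb10. This rule found 36 of the 23337 symbols in the count files. Of these, 16 form the barrel-shaped core particle (Psma1 to Psma8 in the alpha rings, Psmb1 to Psmb7 and Psmb11 in the beta rings). Another 17 form the regulatory cap (the ATPases Psmc1 to Psmc6, the other base subunits Psmd1, Psmd2 and Psmd4, and the lid subunits Psmd3, Psmd6, Psmd7, Psmd8 and Psmd11 to Psmd14). The remaining 3 (Psmd5, Psmd9, Psmd10) are chaperones that help to assemble the base and leave it before it joins the core.

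The series measured total RNA and RPFs (ribosome-protected fragments, or footprints, which are the pieces of mRNA that a translating ribosome covers) in bone-marrow-derived macrophages. Marrow came from C57BL/6J mice aged 6 to 12 weeks, either wild type (WT) or Apobec1-/- (KO), and was grown for 7 days with 20 ng/ml of the growth factor M-CSF. Both genotypes had 6 cultures, each with 1 RNA and 1 RPF library (24 libraries), and the question put to the data was how functional APOBEC1, an RNA-editing deaminase, affects translation. The labels name 3 batches of 4 cultures each. Cultures KO1, WT1, WT2 and WT3 made up batch 1, cultures KO2, KO3, KO4 and WT4 batch 2, and the last 2 of either genotype batch 3. WT mice were littermates of the KO mice or matched to them in age, and the labels do not say which cultures these were.

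The proteasome is assembled from a core and caps. The core encloses the protein-cutting sites inside its beta rings, the alpha rings gate the entrance, and the cap recognises proteins tagged with ubiquitin, removes the tag, unfolds the chain with its ATPase ring and feeds it in. The subunits are needed in fixed proportions, and the genes are known to be raised together by the transcription factor NRF1 (gene Nfe2l1), which binds antioxidant response elements in their promoters. Macrophages use the proteasome for general protein turnover and for making peptides for antigen presentation, and inflammatory signals exchange the catalytic subunits for inducible forms.

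The promoters of the members that hold the core of that element were read because most members moved together between batches. In the RefSeq windows (GRCm38.p6) from 250 bases before to 50 after each gene's start, 29 of the 36 members had an entry. The letters TGACNNNGC on either strand occurred in 5 of these 29 (17.2%) and in 14.0% of all 27025 genes with a window, so their share was close to the background. The sequences read 5′ to 3′ on the gene's strand, the motif is in capitals, and in Psmc6 and Psmd12 it lies on the opposite strand and so appears as its reverse complement. They lie at chr14:54618024-54618052 (Psmb5, minus strand, motif from position -47 to the start), chr11:70525338-70525356 (Psmb6, plus, -9, inside the annotated gene span), chr14:45329587-45329615 (Psmc6, plus, -227), chr11:107479278-107479299 (Psmd12, plus, -247) and chr5:123228149-123228177 (Psmd9, plus, -31):
Psmb5: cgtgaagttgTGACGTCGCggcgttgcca
Psmb6: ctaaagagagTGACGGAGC
Psmc6: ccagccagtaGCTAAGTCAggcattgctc
Psmd12: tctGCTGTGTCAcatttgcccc
Psmd9: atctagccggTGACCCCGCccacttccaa
The general promoter letters CCAAT, again on either strand, occurred in 12 of the 29 (41.4%) and in 41.1% of all genes. A match is a description of the letters, not a shown binding site.

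Library depth was uneven. RNA libraries held 5077478 to 12059361 counts in genes and RPF libraries 29561 to 3714912. The members took 14033 to 41338 counts of each RNA library and 206 to 20961 of each RPF library, with only 206 to 1548 in the RPF libraries of batch 3. On plain library totals, a count of 3 was worth 0.249 to 0.591 CPM (counts scaled to the same library size) in RNA and 0.808 to 101 CPM in RPFs. The other CPM values given here also carry a scaling factor per library (TMM), with which 3 RPF counts in WT6 came to 80.4 CPM. Single members in the shallow libraries are therefore known only coarsely. As a check of the labels, Apobec1 RPFs were at 0 to 24.3 CPM in KO and 59.7 to 102 CPM in WT libraries, while Apobec1 RNA was at 604 to 1276 CPM in KO and 313 to 474 CPM in WT. All 8 macrophage markers found in the files (of 9 symbols listed, with Adgre1 and Emr1 as names of 1 gene) were above 1 CPM in every RNA library, and lymphoid and erythroid markers were all below 1 CPM. Dendritic cell markers summed to 0.845 to 8.10 CPM and stromal and endothelial markers to 0.453 to 6.12 CPM, both highest in a culture of batch 2. Batch 3 stood apart in other ways: the 4 Y-linked genes summed to 1 or 2 RNA counts there against 973 to 3572 in the other batches, and 10 neutrophil markers summed to 422 to 561 CPM against 7.77 to 12.2 in batch 1 and 64.9 to 448 in batch 2. All 10 of those neutrophil markers were above 1 CPM in every culture of batch 3, against 7 of 10 in batch 2 and 2 of 10 in batch 1, where Ngp, Camp, Ltf, Elane and Mpo stayed below 1 CPM. The 8 macrophage markers summed to 21467 to 28692 CPM in batch 1, 27414 to 48906 in batch 2 and 15257 to 25118 in batch 3, with medians of 26834, 30282 and 16042 CPM. Whether the cultures came from separate mice is not said in the labels. The p-values given here therefore reflect the spread between cultures, which may be technical.

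All the constitutive subunits were read in these macrophages but for the 2 that belong to other tissues. Of the 36 members, 35 passed the filter on low RNA counts and 34 passed that on RPF counts. Psmb11, the thymus form of the chymotrypsin-like subunit, had 30 RNA counts and 0 RPF counts over all 12 cultures. Psma8, the testis form of an alpha subunit, had 166 RNA and 22 RPF counts, and its RNA stood at 1.04 to 2.74 CPM. Psmd7, a lid subunit, passed both filters but had 0 RPF counts in WT6, where a count of 3 corresponds to 80.4 CPM.

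Summed over the members, RNA came to 3724 ± 627 CPM (SD, n = 12 cultures) and RPFs to 5660 ± 688 CPM. The members thus took 0.276% to 0.509% of the RNA counts and 0.483% to 0.697% of the RPF counts, and the RPF share was above the RNA share in each culture. The summed RNA was 3412 to 3748 CPM in batch 1, 2843 to 3506 in batch 2 and 4035 to 4979 in batch 3, so batch 3 lay above all others. By genotype it was 3573 ± 677 CPM in KO and 3875 ± 593 in WT (SD, n = 6 each), a difference smaller than either spread. The steadiest members in RNA were the ubiquitin receptor Psmd4 and the lid subunit Psmd3, with coefficients of variation of 8.8% and 9.6% over the 12 cultures. The most variable of the 34 members that passed both filters were the lid subunit Psmd8 at 32.6%, the caspase-like catalytic subunit Psmb6 at 30.8% and the chymotrypsin-like catalytic subunit Psmb5 at 25.2%.

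**Figure D1:**
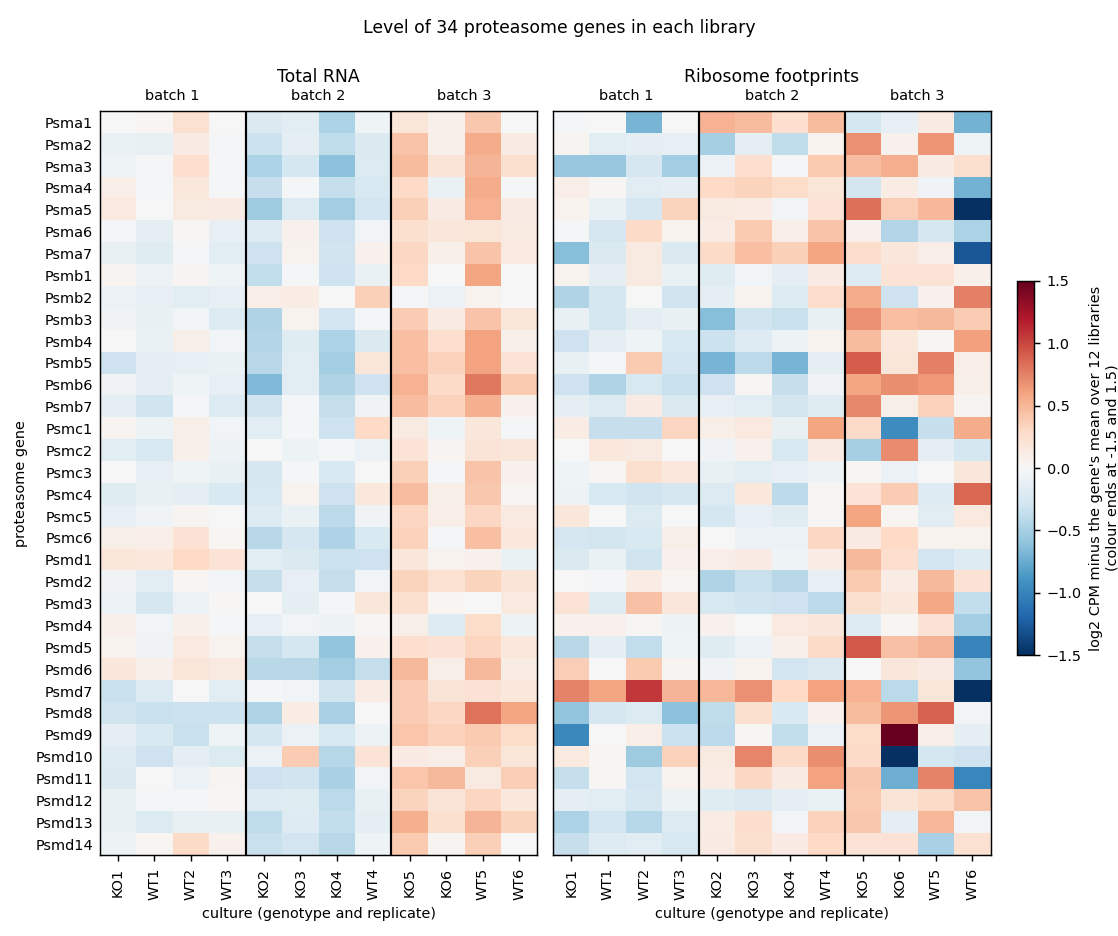
Each row is 1 of the 34 members that passed both filters and each column 1 culture, grouped by batch, with RNA on the left and RPFs on the right; the colour gives log2 CPM minus that gene's mean over the 12 libraries of its kind. Most rows are red in RNA in batch 3, where the summed level was 4035 to 4979 CPM against 2843 to 3748 CPM elsewhere, and the RPF columns of KO6 and WT6 are the most uneven.

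The 3 catalytic subunits of the core were highest in RNA in the cultures of batch 3. Psmb5 (chr14:54614120-54617995) had RNA of 70.6, 78.7, 80.5 and 81.9 CPM in KO1, WT1, WT2 and WT3, then 65.8, 77.5, 60.8 and 99.6 CPM in KO2, KO3, KO4 and WT4, and 119, 111, 133 and 101 CPM in KO5, KO6, WT5 and WT6. Its RPFs, in the same order, were 209, 222, 297 and 185 CPM in batch 1, 139, 171, 138 and 206 in batch 2, and 424, 255, 381 and 241 in batch 3. All 4 cultures of batch 3 were above the other 8 in RNA, though only by 101 against 99.6 CPM at the nearest, and the RPF values of batches 1 and 3 overlapped.

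Psmb6 (chr11:70525324-70527858) had RNA of 129, 122, 127 and 122 CPM in batch 1, 84.1, 118, 97.2 and 107 in batch 2, and 191, 163, 232 and 175 in batch 3, in the culture order used above. Its RPFs were 162, 147, 171 and 160 CPM, then 163, 204, 159 and 195, and then 306, 329, 317 and 214. Batch 3 was the highest in both kinds of library, with no overlap. The trypsin-like subunit Psmb7 (chr2:38588046-38643952) had RNA of 76.2, 68.3, 83.3 and 72.9 CPM, then 68.3, 82.8, 65.4 and 81.2, and then 116, 107, 122 and 87.7, again with batch 3 on top. RefSeq lists pseudogenes named after Psmb5, Psmb6, Psmb7 and Psma5. Reads that also match a near copy have no single position and were kept out. The counts and RPF to RNA ratios of these 4 are therefore uncertain. Near copies under other names were not searched for, so the other members are not shown to be free of this limit.

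Of the cap, the deubiquitinase Psmd14 (chr2:61711694-61800376) had RNA of 72.3, 77.5, 93.4 and 79.7 CPM in batch 1, 60.7, 62.4, 57.1 and 73.1 in batch 2, and 99.9, 78.7, 97.9 and 75.7 in batch 3. Its RPFs went another way, with 71.4 to 80.7 CPM in batch 1, 99.3 to 112 in batch 2 and 64.3 to 107 in batch 3. Batch 2 held the 3 lowest RNA values of all, in KO2, KO3 and KO4, while its RPF values lay above those of batch 1 with no overlap. Psmd4 (chr3:95032688-95042614) stayed between 77.0 and 107 CPM in RNA and between 80.4 and 133 CPM in RPFs. The base scaffold Psmd2 (chr16:20651122-20663414) had 308 to 351 CPM of RNA in batch 1, 268 to 333 in batch 2 and 392 to 434 in batch 3.

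The members had many RPFs for their RNA. The ratio of RPF to RNA was tested with edgeR's quasi-likelihood test over all 24 libraries, across 10747 genes, with Benjamini-Hochberg adjustment and a threshold of 0.05. It was higher than the library-wide average for 31 of the 34 members tested and lower for 0, where 28.4% of all genes tested were called higher. The median log2 ratio was 0.71 for the members and -0.13 for all genes, and the 34 members lay between the 56.9th and the 98.5th percentile of all genes. Of the 34, 26 lay above the upper quartile of all genes.

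The highest ratios belonged to 3 beta subunits. Psmb3, a structural beta subunit (chr11:97703434-97713500), stood at log2 1.60 ± 0.08 (SE, adjusted p = 1.2e-17, edgeR), with a plain ratio of 2.2 to 3.54 over the 12 cultures. The structural subunit Psmb2 followed at 1.55 ± 0.08 (adjusted p = 5.8e-17, edgeR), with a ratio of 2.11 to 4.66. Psmb5 was at 1.51 ± 0.09 (adjusted p = 2.9e-15, edgeR), with 2.97, 2.81, 3.69 and 2.25 in batch 1, 2.11, 2.21, 2.28 and 2.07 in batch 2, and 3.55, 2.3, 2.86 and 2.39 in batch 3. All 3 were above 2 in every culture. The other catalytic subunits Psmb6 and Psmb7 had log2 ratios of 0.71 ± 0.08 and 0.75 ± 0.08, and the cap members Psmd4, Psmd14 and Psmd2 of 0.53 ± 0.08, 0.34 ± 0.09 and 0.30 ± 0.07, all 5 called higher.

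At the low end, 3 members did not pass the test. Psmd8 (chr7:29174187-29180673) had a log2 ratio of 0.03 ± 0.09 (SE, adjusted p = 0.80, edgeR) and a plain ratio of 0.599 to 1.18. The assembly chaperones Psmd5, at 0.18 ± 0.10 (adjusted p = 0.12, edgeR), and Psmd10, at 0.29 ± 0.15 (adjusted p = 0.094, edgeR), were next. A plain ratio above 1 in all 12 cultures was found in 16 of the 34 members. The share of all genes that meet this was not computed, and single ratios are coarse in the shallow RPF libraries of batch 3. The count is therefore a description only.

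By position in the particle, the median log2 ratio was 0.84 for the 7 alpha subunits, 0.75 for the 7 beta subunits, 0.89 for the 6 ATPases, 0.53 for the 3 other base subunits, 0.63 for the 8 lid subunits and 0.29 for the 3 chaperones. All members of the first 4 classes were called higher, against 7 of 8 in the lid and 1 of 3 chaperones. Some limits touch these values. The RPF counts cover coding sequence while the region counted in RNA is not stated, so a gene's ratio also carries the coding share of its mRNA, whose part in the order of genes was not tested. With another library scaling (RLE size factors) the members' median was 0.56 and that of all genes -0.29, with 29 members called and Psmd8 below 0, while the distance between the medians was 0.84 with the first scaling and 0.85 with the second.

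**Figure D2:**
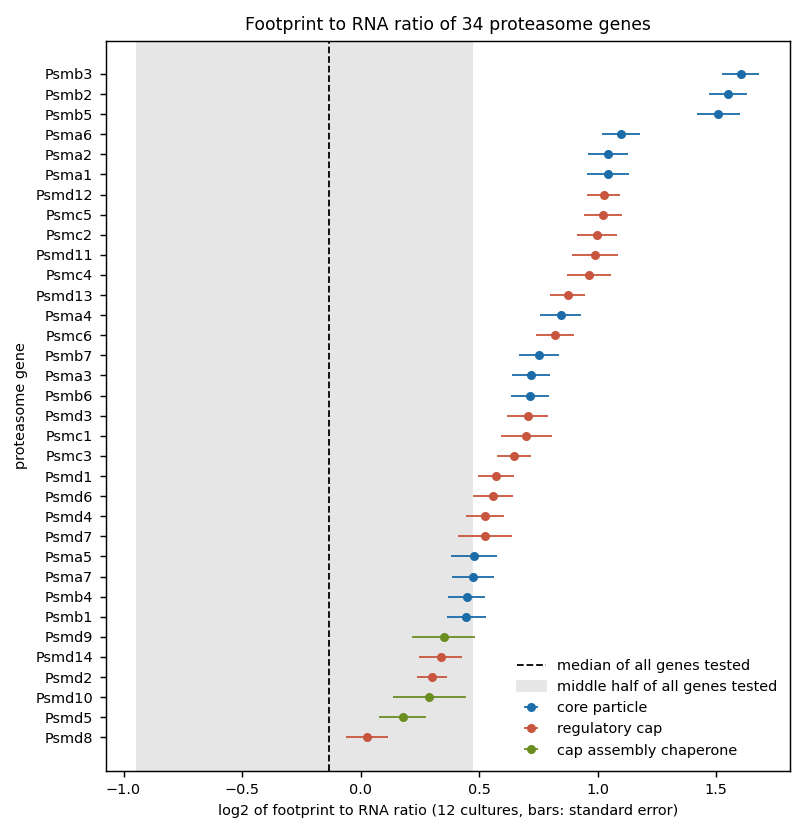
The horizontal axis gives the fitted log2 RPF to RNA ratio over the 12 cultures for each of the 34 members in rows, with bars of 1 standard error, and colours mark core, cap and chaperones. The dashed line is the median of all genes tested (-0.13) and the grey band reaches from their lower to their upper quartile; Psmb3, Psmb2 and Psmb5 stand apart at 1.51 to 1.60 and Psmd8 is lowest at 0.03.

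Summed over subunits, the core had more RPFs per RNA than the cap in each culture, while by medians over subunits it did not in every culture. The summed RPFs over the summed RNA came to 1.46 to 2.07 for the 14 core subunits (mean 1.73 ± 0.22, SD, n = 12) and to 1.24 to 1.56 for the 17 cap subunits (1.41 ± 0.11). The core ratio divided by the cap ratio was above 1 in 12 of 12 cultures, at 1.12 to 1.33 with a mean of 1.22 ± 0.08. It was 1.12 to 1.16 in batch 1, 1.24 to 1.32 in batch 2 and 1.17 to 1.33 in batch 3, so batch 1 lay below the others with no overlap. On the log2 scale the mean was 0.289 ± 0.095 (SD) from summed values. Taking the median of the members' own ratios in core and cap, it was 0.152 ± 0.141, above 0 in 10 of 12 cultures and below in WT2 and WT3. Taking median RPF levels over median RNA levels, it was 0.0518 ± 0.116, above 0 in 9 of 12 and below in WT2, WT3 and WT5, a mean smaller than the spread between cultures. Because this value compares genes, the limit on the counted regions applies to its size. Whether it also bears on how the value moves between cultures was not tested.

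Within the particle, the alpha rings moved most between batches. Their RPF to RNA ratio was 1.32 to 1.54 in batch 1, 2.07 to 2.27 in batch 2 and 1.05 to 1.62 in batch 3, so batch 2 was apart. The lid was likewise highest in batch 2, with 1.26 to 1.38, 1.48 to 1.59 and 0.903 to 1.28 in the 3 batches. The beta rings overlapped between batches, at 1.63 to 1.84, 1.69 to 1.86 and 1.57 to 2.01. So did the ATPases, at 1.54 to 1.84, 1.72 to 1.83 and 1.21 to 1.91.

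The balance between constitutive and inducible catalytic subunits also followed the batch. Summed RNA of Psmb5, Psmb6 and Psmb7 divided by that of Psmb8, Psmb9 and Psmb10 was 0.643 to 0.757 in batch 1, 0.541 to 0.624 in batch 2 and 1.03 to 1.16 in batch 3. In RPFs it was 0.673 to 0.797, 0.679 to 0.855 and 1.38 to 2.00. Batch 3 was above the other 8 cultures in both, while by genotype the RNA ratio was 0.777 ± 0.290 in KO and 0.823 ± 0.205 in WT (SD, n = 6 each). The size of this ratio depends on gene lengths, so it is read only between cultures, and it was chosen after the data were seen and has no test.

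**Figure D3:**
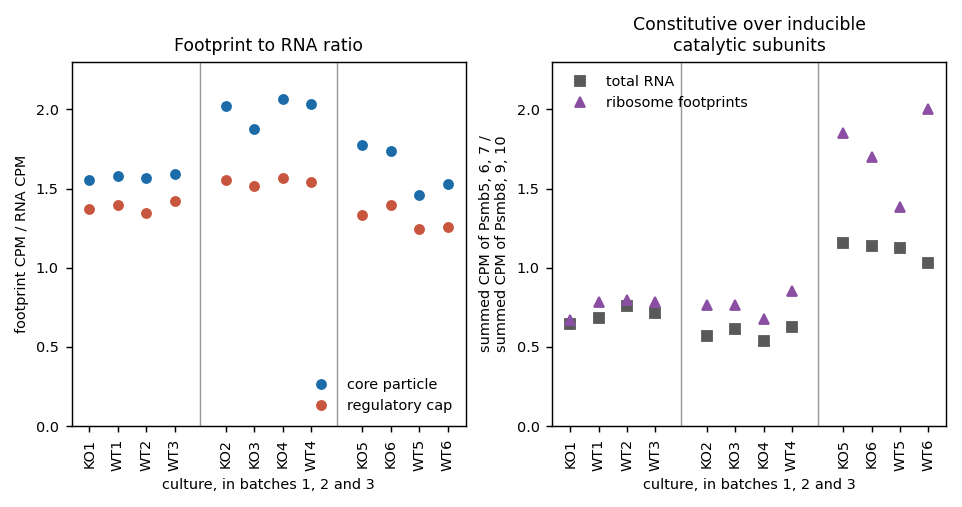
The left panel plots the RPF to RNA ratio of the summed core and cap subunits, and the right panel the summed CPM of Psmb5, Psmb6 and Psmb7 over that of Psmb8, Psmb9 and Psmb10, 1 point per culture with batches side by side. By these sums the core lies above the cap in all 12 cultures, and the batch 3 points of the right panel (RNA 1.03 to 1.16) lie above those of the other batches (0.541 to 0.757).

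With all cultures in the fit, no member was called between Apobec1-/- and wild type. In RNA, KO against WT with batch in the fit, 0 of 35 members passed (edgeR, adjusted over 10942 genes), where 0.0183% of genes were called. The members' median log2 difference was -0.07 and ranged from -0.23 to 0.06, with 3 members positive and 32 negative, and the median of all genes was -0.00. Of the 35, 1 had an unadjusted p under 0.05, against 4.68% of all genes. This was Psmb5, whose RNA had a lowest, median and highest value of 60.8, 74.1 and 119 CPM in KO and 78.7, 90.7 and 133 CPM in WT. The genotypes overlapped, and the log2 difference was -0.23 ± 0.11 (SE, unadjusted p = 0.047, adjusted p = 0.859, edgeR). The next were Psmd8 at -0.21 ± 0.11 and the ATPase Psmc1 at -0.14 ± 0.10, both with an adjusted p of 0.859 in edgeR.

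The many negative signs in RNA were not spread evenly over the batches and were most frequent in batch 2. Counting the 34 members with both readouts, KO was below WT in 13 in batch 1, in 32 in batch 2 and in 22 in batch 3, with median log2 differences of 0.02, -0.18 and -0.04. Batch 2 has WT4 as its only WT culture, and without it the median over the members was -0.03 with 10 of 35 positive. Limma's voom with quality weights gave 14 of 35 positive. Of the 34 members, 3 were positive with DESeq2, 3 with RLE size factors, 10 without batch 2 and 2 without batch 3. Most signs thus stayed negative in each of these fits. A fit of only the 4 cultures with at least 1000000 RPF counts (WT1, KO2, KO4 and WT4) called some members, all lower in KO. The median RNA difference of the 34 members was -0.24 in that fit, against 0.009 for all genes. Batch 1 has only WT1 in that fit, so the contrast sets KO2 and KO4 against the single culture WT4, with their spread as the error.

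In RPFs, 0 of 34 members passed for genotype (edgeR, adjusted over 7208 genes), where 0.0832% of genes were called. The median log2 difference was -0.10, with 9 members positive and 25 negative, and that of all genes 0.01. Psmd11, a lid subunit (chr11:80428615-80473248), had the smallest p. Its RPFs had a lowest, median and highest value of 63.7, 116 and 141 CPM in KO and 53.6, 109 and 179 CPM in WT, which overlap. The fitted log2 difference was -0.40 ± 0.17 (SE, unadjusted p = 0.022, adjusted p = 0.505, edgeR; adjusted p = 0.318, DESeq2), and it was the only member with an unadjusted p under 0.05, against 8.52% of all genes. Psmb2 followed at -0.24 ± 0.15 (adjusted p = 0.744, edgeR) and the lid subunit Psmd13 at -0.21 ± 0.14 (adjusted p = 0.789, edgeR). Within batches, KO was below WT in 18, 31 and 10 of the 34, with medians of -0.05, -0.21 and 0.14, and without WT4 the members' median was -0.01 with 16 of 34 positive. The same 4 cultures alone gave 6 members lower and 0 higher in RPFs, where 1413 of 9725 genes were called.

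The RPF to RNA ratio did not pass between genotypes in any member either. The interaction term called 0 of 34, where 0.0093% of 10747 genes were called, with 17 members positive, 17 negative, a median of -0.01 and 0 members at an unadjusted p under 0.05, against 2.98% of genes (edgeR). The largest differences by p were Psmd11 at -0.33 ± 0.20, Psmd6 at 0.18 ± 0.17 and Psmd13 at -0.16 ± 0.16, each with an adjusted p of 1 in edgeR. The catalytic subunits Psmb5, Psmb6 and Psmb7 had ratio differences of 0.01 ± 0.19, 0.05 ± 0.17 and 0.04 ± 0.17. DESeq2 and voom also called 0 members in RNA, in RPFs and in the ratio. With each culture's RNA and RPF library as a pair, the members' median ratio difference was 0.01, with 18 of 34 positive, and 1 of 10747 genes was called.

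No member had KO and WT cultures that did not overlap, in RNA or in RPFs. Among all genes, KO lay wholly above WT in 0.0548% in RNA and 0.208% in RPFs, and wholly below in 0.0731% and 0.0971%. In the authors' deposited table over all genes, all 36 members are listed, 0 have an adjusted p-value under 0.05 and 0 an unadjusted one, and the median log2 fold change is -0.07 against -0.04 for all genes. In the authors' deposited table of the top 25 percent of genes, 33 members are listed and 0 have an adjusted p-value under 0.05. The direction of these fold changes is not given in the sources used here.

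**Figure D4:**
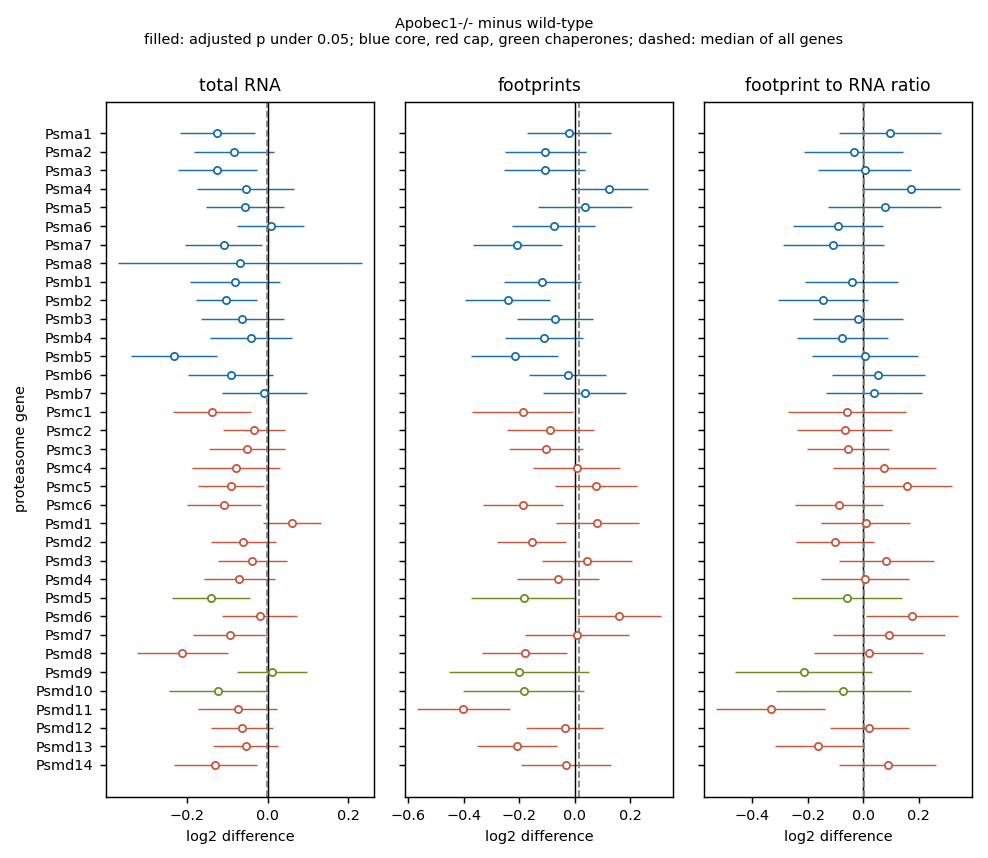
Points give the log2 difference KO minus WT for each member in rows, in RNA, in RPFs and in the RPF to RNA ratio, with bars of 1 standard error from edgeR fits that include batch and a dashed line at the median of all genes. No point is filled, which would mark an adjusted p under 0.05, and the RNA points lie between -0.23 and 0.06.

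Batches differed far more than genotypes. In RNA, batch 3 was above batch 1 in 21 of 35 members and below in 0 (edgeR, adjusted p under 0.05 over 10942 genes), where 23% of genes were called higher and 22.3% lower. The members' median log2 difference was 0.30 against 0.01 for all genes, and 33 members were positive. Called were 4 of 8 alpha subunits, 5 of 7 beta subunits, 4 of 6 ATPases, 1 of 3 other base subunits, 5 of 8 lid subunits and 2 of 3 chaperones, so no class carried the rise alone. Psmd8 rose most, from 212 to 217 CPM in the 4 cultures of batch 1 to 350, 332, 472 and 403 CPM in batch 3, a log2 difference of 0.90 ± 0.13 (SE, adjusted p = 0.0001, edgeR). Psmb5 rose by 0.64 ± 0.12 (adjusted p = 0.00094, edgeR) and Psmb6 by 0.63 ± 0.12 (adjusted p = 0.00085, edgeR). Psmb7 rose by 0.53 and Psmd2 by 0.34, while Psmd4 at 0.03, Psmd14 at 0.16 and the base scaffold Psmd1 at -0.18 did not pass.

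Against batch 2 the RNA of batch 3 was above in 27 of 35 members and below in 0, where 24.7% of genes were called higher and 24.5% lower. The median was 0.43, against 0.01 for all genes, with 34 members positive. The largest rises were those of Psmb6 at 0.88 ± 0.12 (SE, adjusted p = 7.3e-05, edgeR), the lid subunit Psmd6 at 0.72 ± 0.11 (adjusted p = 0.00013, edgeR) and the alpha subunit Psma3 at 0.72 ± 0.11 (adjusted p = 0.00021, edgeR). Called were 7 of 8 alpha and 6 of 7 beta subunits, 3 of 6 ATPases, 2 of 3 other base subunits, 7 of 8 lid subunits and 2 of 3 chaperones. The 2 contrasts share the libraries of batch 3.

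In 15 of the 35 members the 4 RNA values of batch 3 lay above all 8 others, where this held for 13.1% of genes, and in 0 they lay below, where it also held for 13.1%. The 15 were Psma6, Psma7, Psmb3, Psmb5, Psmb6, Psmb7, Psmc5, Psmd2, Psmd5, Psmd7, Psmd8, Psmd9, Psmd11, Psmd12 and Psmd13. Batch 3 also held the lowest share of RNA reads outside any gene, 4.32% to 5.53% against 8.46% to 19.2%, the higher summed neutrophil markers, the lower median of the summed macrophage markers (16042 CPM against 26834 and 30282) and the near absence of Y-linked counts given above. Their part in the differences between batches was not tested. In bulk samples, a change in the mix of cells and a change in RNA per cell cannot be told apart.

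Batch 2 against batch 1 showed less in RNA. Psmb2 was the 1 member called higher, at 0.32 ± 0.09 (SE, adjusted p = 0.023, edgeR), where 12.7% of genes were called higher. The 5 called lower, where 10.8% of genes were, were Psmd6 at -0.56 ± 0.11 (adjusted p = 0.0047, edgeR), Psmd1 at -0.50 ± 0.09 (adjusted p = 0.002, edgeR), the alpha subunit Psma5 at -0.46 ± 0.12 (adjusted p = 0.015, edgeR), the ATPase Psmc6 at -0.39 and Psma3 at -0.36. Psmd6 had 95.4 to 103 CPM in batch 1 and 62.8 to 70.6 in batch 2, and Psmd1 had 177 to 194 and 126 to 140, both with no overlap. The count of 6 fell to 3 without KO1 and to 3 without WT2, where the count of all genes called went from 2572 to 2024 and 1812. Psmd1 overlaps the gene Htr2b over 18686 bases, and the counting is not stated to use strand, so reads there could belong to either.

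In RPFs the rise of batch 3 was called in fewer members. Against batch 1, 10 of 34 were higher and 0 lower, where 9.54% of genes were called higher and 11.2% lower, with a median of 0.39 against -0.03 for all genes. Psmd8 led at 1.08 ± 0.19 (SE, adjusted p = 8e-05, edgeR), from 162 to 216 CPM in batch 1 to 347, 393, 459 and 241 CPM in batch 3. Psmb6 followed at 0.95 ± 0.18 (adjusted p = 0.0002, edgeR) and Psma3 at 0.89 ± 0.20 (adjusted p = 0.0011, edgeR). Called were 5 of 7 beta subunits and 0 of 6 ATPases. Without KO5 the count was 4 and without WT5 it was 6, and all genes called higher went from 688 to 421 and 441. These cultures hold the deepest RPF libraries of their batch.

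Against batch 2, 9 members had more RPFs in batch 3, where 10.9% of genes did, and 1 had fewer, where 11.7% did, with a median of 0.20 against -0.04. Psmb5 rose by 1.07 ± 0.19 (SE, adjusted p = 7.4e-05, edgeR), Psmb3 by 0.87 ± 0.17 (adjusted p = 0.00023, edgeR) and Psmb6 by 0.76 ± 0.17 (adjusted p = 0.0011, edgeR). Psmb3 had 145, 183, 179 and 209 CPM of RPFs in batch 2 and 365, 308, 317 and 295 in batch 3, with no overlap. The alpha subunit Psma1 was the member that fell, at -0.57 ± 0.19 (adjusted p = 0.029, edgeR). Without KO5, 5 members were called in all, and genes called went from 1623 to 974. RPFs of batch 3 were above those of all other cultures in 4 of 34 members (Psmb3, Psmb6, Psmd2, Psmd12), where this held for 4.62% of genes, and below in 0, where it held for 8.62%.

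**Figure D5:**
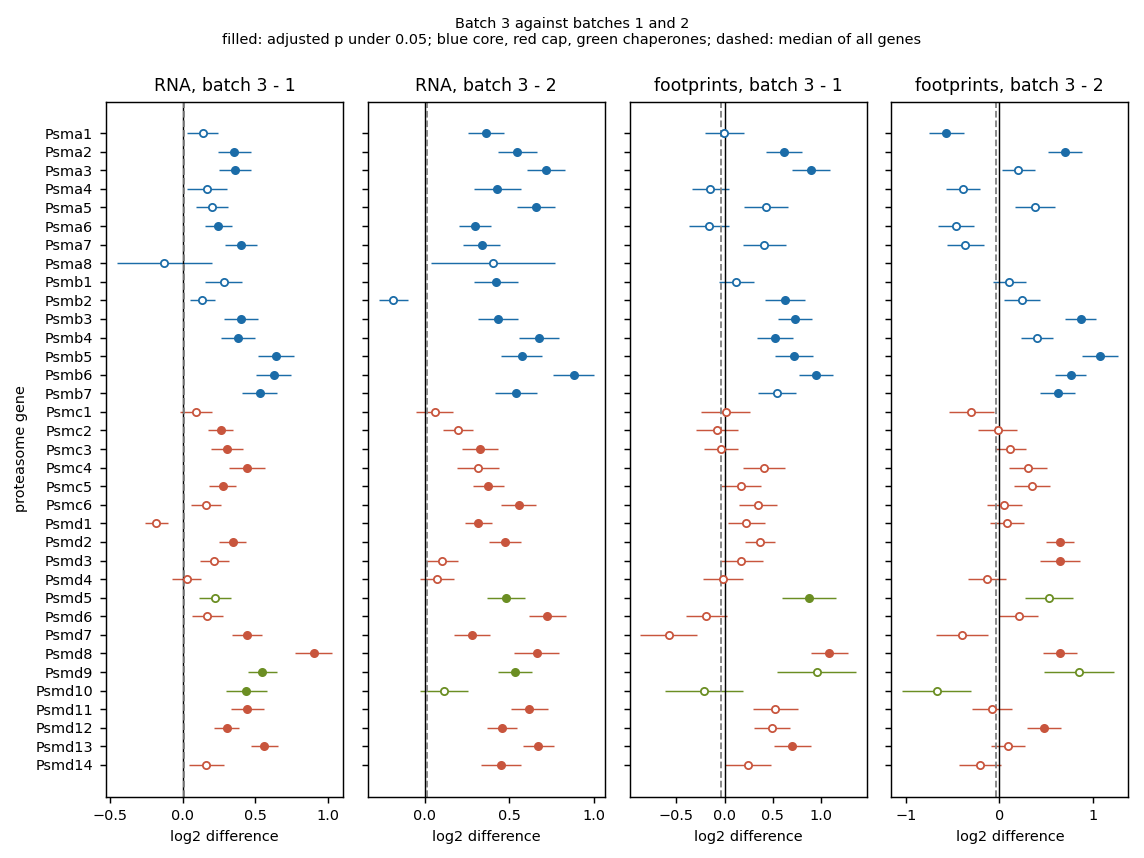
Points give the log2 difference of batch 3 against batches 1 and 2 for each member in rows, in RNA and in RPFs, with bars of 1 standard error, filled points for an adjusted p under 0.05 and a dashed line at the median of all genes. In RNA, 21 members are filled against batch 1 and 27 against batch 2, all to the right of 0.

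Between batches 1 and 2, RNA and RPFs of some members went opposite ways, and the ratio moved. In RPFs, 5 of 34 members were higher in batch 2 and 0 lower, where 8% of genes were called higher and 7.37% lower. They were the alpha subunits Psma7 at 0.77 ± 0.18 (SE, adjusted p = 0.0025, edgeR), Psma3 at 0.69 ± 0.16 (adjusted p = 0.0037, edgeR) and Psma1 at 0.56, and the lid subunits Psmd13 at 0.61 ± 0.16 (adjusted p = 0.0083, edgeR) and Psmd11 at 0.61. Without WT4 1 member was called, and without WT2 3, while genes called higher went from 577 to 262 and 494.

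Psma3 shows the pattern most fully. Its RNA was 113, 115, 140 and 115 CPM in KO1, WT1, WT2 and WT3 and 84.4, 98.1, 76.4 and 102 CPM in KO2, KO3, KO4 and WT4. Its RPFs were 122, 122, 152 and 126 CPM in the former and 171, 215, 178 and 238 in the latter. The ratio was therefore 1.08, 1.06, 1.08 and 1.1 in batch 1 and 2.02, 2.19, 2.32 and 2.33 in batch 2, with no overlap, and 1.53, 1.97, 1.18 and 1.54 in batch 3. Psma3 overlaps a long non-coding RNA gene (3110056K07Rik) over 4263 bases, so some of its RNA reads may belong to that gene.

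The test of the ratio between batches was added after the data were seen. From batch 1 to batch 2 it called 8 of 34 members higher and 0 lower, where 5.48% of genes were called higher and 4.56% lower. Among them were Psma3 at 1.08 ± 0.19 (SE, adjusted p = 0.00047, edgeR), Psma1 at 0.82 ± 0.21 (adjusted p = 0.011, edgeR) and Psmd11 at 0.81 ± 0.23 (adjusted p = 0.019, edgeR). The deubiquitinase Psmd14 was another, at 0.77, with ratios of 0.988, 1.03, 0.864 and 0.964 in batch 1 and 1.64, 1.72, 1.74 and 1.54 in batch 2. The 8 were 3 alpha subunits, 1 ATPase, 1 other base subunit and 3 lid subunits, and no beta subunit. The count was 1 without KO1 and 1 without WT4, and 15 with each culture's RNA and RPF library treated as a pair. Genes called higher went from 589 to 229, 192 and 1167 in these fits. Without KO1 or WT4 the members' count thus fell more steeply than that of all genes, so the 8 calls rest on single cultures.

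From batch 2 to batch 3 the ratio was lower in 9 of 34 members and higher in 0, where 4.75% of genes were called lower and 1.67% higher. Psma1 fell most, at -1.08 ± 0.22 (SE, adjusted p = 0.0032, edgeR), from 3.07, 2.86, 3.06 and 2.67 in batch 2 to 1.35, 1.61, 1.51 and 1.13 in batch 3. The alpha subunits Psma4 at -0.97 ± 0.22 (adjusted p = 0.0073, edgeR) and Psma6 at -0.91 ± 0.20 (adjusted p = 0.0059, edgeR) followed, and 5 of the 7 alpha subunits were called. All genes had a median of -0.16 in this contrast and the members -0.39. With RLE size factors these were -0.01 and -0.23, and 3 members were called, where 582 of all genes were. The count was 14 with each culture's libraries as a pair, 5 without KO2, 5 without KO4, 4 without KO5 and 5 without WT5. Genes called lower went from 510 to 798, 382, 375, 206 and 369 in these fits.

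Between batches 1 and 3 the ratio called 0 of 34 members, where 0.633% of genes were called, with 5 members at an unadjusted p under 0.05, against 11.5% of genes (edgeR). With each culture's libraries as a pair it called 1, and 230 genes in place of 68. The ratio of Psmb6 was 1.21 to 1.34 in batch 1, 1.63 to 1.93 in batch 2 and 1.23 to 2.02 in batch 3.

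Other genes of the pathway did not all move with the subunits. Of the 34 listed symbols (inducible subunits, activators, assembly factors, cap-associated proteins and regulators), 32 were in the files, and 32 were tested in RNA and 31 in RPFs. None was called for genotype in RNA, RPFs or the ratio. In batch 3, 7 were higher and 8 lower in RNA than in batch 1, and 7 higher and 9 lower than in batch 2, with medians of 0.02 and -0.00. These counts lie near the shares over all genes, of which 23% were higher and 22.3% lower against batch 1 and 24.7% and 24.5% against batch 2. Factors that assemble the core were higher in 3 of 5 against batch 1 and in 4 of 5 against batch 2.

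Among these, Pomp, which matures the core, went with the subunits. Its RNA was 118 to 130 CPM in batch 1, 94.4 to 122 in batch 2 and 134 to 193 in batch 3. The log2 differences of batch 3 were 0.35 (adjusted p = 0.024, edgeR) against batch 1 and 0.47 (adjusted p = 0.0045, edgeR) against batch 2, and in RPFs 0.87 and 0.67, both called. Adrm1, a ubiquitin receptor of the cap, was higher against batch 1 at 0.32 (adjusted p = 0.019, edgeR).

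The inducible subunits did not rise. Psmb10, the counterpart of Psmb7, had RNA of 103 to 119, 113 to 145 and 78.6 to 97.3 CPM in the 3 batches, so batch 3 lay below the others, at -0.39 (adjusted p = 0.0067, edgeR) against batch 1 and -0.62 (adjusted p = 0.0003, edgeR) against batch 2. Psmb9, the counterpart of Psmb6, was lower at -0.32 (adjusted p = 0.025, edgeR) against batch 2. Psmb8, the counterpart of Psmb5, stayed at 215 to 248, 217 to 264 and 206 to 273 CPM and was not called. The activator subunit Psme1 was lower against batch 2 at -0.59 (adjusted p = 0.00012, edgeR), and its partner Psme2 was not called.

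Of the transcription factors, Nfe2l1 had RNA differences of 0.26 (adjusted p = 0.18, edgeR) and 0.00 in batch 3 against batches 1 and 2. Nfe2l2, which encodes NRF2, the related factor of the oxidative stress response, was lower in batch 3, at -0.48 (adjusted p = 0.0017, edgeR) and -0.66 (adjusted p = 0.00017, edgeR) in RNA, and at -0.67 and -0.68 in RPFs, both called. Of the 5 members whose promoter window held the element, Psmb5, Psmb6, Psmd9 and Psmd12 were called higher in batch 3 against batch 1 in RNA, and Psmc6, at 0.16, was not. Of all members 21 of 35 were called higher in this contrast, as were 23% of genes, so nothing about the element is read from these 5.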

How the data were processed

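Total RNA and RPFs were read in 12 cultures. Per the file headers and file names, the authors deposited raw read counts per gene symbol, over coding sequence for RPFs and over a region not given in the sources used here for RNA. The submitters' processing notes name build mm10 and, with no role or order, DESeq2, DESeq, Cufflinks 2.2.1, TopHat2 2.1.0, Bowtie 1.1.2, HTSeq and Trim Galore; strandedness is not given in the sources used here. Genes absent from an RPF file were taken as 0, and the HTSeq summary lines were kept out. Reads without a single position made up 27.8% to 51.2% of RNA and 45.6% to 80.1% of RPF files. The authors' deposited result tables give, per the file headers, a signal (mean scaled count), a log2 fold change, a test score and a p-value.

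Here edgeR 4.0.16 (R 4.3.3) was used: TMM scaling, filterByExpr by genotype (min.count 10), quasi-likelihood tests with robust dispersions of genotype and batch together, and Benjamini-Hochberg adjustment over all genes at 0.05. CPM are on TMM-scaled library sizes. The RPF to RNA ratio was tested over 24 libraries as the molecule term, and its differences as the interactions of molecule with batch and genotype. The main fit has no term for the culture, so it treats the RNA and RPF library of a culture as independent. A count of 3 was taken as the floor, for counting error only. Fits were tested on simulated data.

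The RNA and RPF library of a culture deviated together from their genotype means (correlations of 0.219 to 0.558 in 12 of 12). Batch was not taken out of these deviations, so shared cells and a shared batch cannot be told apart. Alternatives were DESeq2 1.42.0, voom with quality weights (limma 3.58.1), RLE size factors, no filter, no batch term, blocks, leaving out cultures or batches, and cultures with at least 1000000 RPF counts only. No coding lengths were used, so levels of different genes are not ranked and no footprint level per length is given.

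Named with values were Psmb5, Psmb6, Psmb7, Psmd14, Psmd4 and Psmd2, in each genotype fit the 3 members with the smallest p, in each batch contrast the 3 called members with the largest rise and fall, the 3 highest and lowest ratios, members failing a filter, and Psmb8, Psmb9, Psmb10, Psme1, Psme2, Pomp, Adrm1, Nfe2l1 and Nfe2l2. The members, lists and this rule were chosen with earlier results of these data known. Other genes named were chosen after their values were seen.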

Additional observations from a re-analysis of the deposited data

Results flagged for a closer look

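Of 98 groups of 6 cultures examined, 11 had 1 culture far from the other 5. The rule flags about 1 of 20 groups when the 6 values are independent draws from 1 normal distribution. These groups mix batches and share cultures, so the count of 11 cannot be set against that rate. In KO, the RPF to RNA ratio of Psmb2 reached 4.08 in KO5 and that of Psmc1 dropped to 0.804 in KO6, the RPF level of Psmb7 reached 214 CPM in KO5, and that of Psmd14 was lowest at 71.4 CPM in KO1. In WT, WT4 stood apart with a summed member ratio of 1.73, Psmb2 RNA of 74.4 CPM, a Psmb6 ratio of 1.82 and a Psmd13 ratio of 2.33. WT4 is the only WT culture of batch 2. WT5 stood apart with Psmb7 RNA of 122 CPM and Psmd8 RPFs of 459 CPM, and WT6 with a Psmb2 ratio of 4.66. KO1 is the only KO culture of batch 1, and KO5, KO6, WT5 and WT6 are those of batch 3, whose RPF libraries held 206 to 1548 member counts.

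The RPF to RNA ratio differed between batches by the interaction test (edgeR) in 8 members for batch 2 against batch 1, all higher, and in 9 members for batch 3 against batch 2, all lower.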

How the results depend on the processing

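Among the members picked by the naming rule in each comparison, no called value changed sign under an alternative run. The other called members were not checked for this. Of the recomputed counts and quotients, 251 stayed within 1.5 times the reported count or the reported spread and 29 did not. With only the 4 cultures of at least 1000000 RPF counts (2 KO and 2 WT), genotype called 10 members in RNA and 6 in RPFs, all lower in KO, and batch 2 against 1 called 10 in RPFs. Batch 1 has only WT1 in that fit, so genotype there sets KO2 and KO4 against the single culture WT4. Batch 2 against 1 likewise sets WT4 against WT1. The values from that fit rest on single cultures and are not read as effects of genotype or batch. Voom called 3 members in RPFs and 4 in the ratio for batch 2 against 1, where it called 628 of 7208 and 381 of 10747 genes. For batch 3 against 1 it called 1 member in the ratio, where it called 751 genes. Without a filter the ratio called 1 member for batch 3 against 1 and 5 for batch 3 against 2, where RLE size factors called 3. KO and WT libraries of the same number had correlations of 0.0274 to 0.807 in RNA and 0.0732 to 0.328 in RPFs. Batch was not taken out of these values, so they neither show nor exclude pairing. By the labels, KO2 and KO3 are in batch 2 while WT2 and WT3 are in batch 1. With the number as a replicate block, batch 2 against 1 called 0 in RNA and 0 in RPFs, where it called only 102 and 70 genes of all, against 2572 and 1108 without it. With the culture as the replicate block, the ratio called 15 for batch 2 against 1, 1 for batch 3 against 1 and 14 for batch 3 against 2, and calls over all genes rose too (from 1079 to 2311, 68 to 230 and 690 to 1248). The core to cap log2 quotient was 0.152 as the median of members' ratios and, added after the data were seen, 0.0518 as a ratio of median levels.

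Leaving out 1 culture at a time, the genotype counts stayed at 0, and the batch counts ranged as follows. In RNA they were 3 to 7 for batch 2 against 1, 14 to 21 for 3 against 1 and 20 to 28 for 3 against 2. In RPFs they were 1 to 7, 4 to 11 and 5 to 10, and in the ratio 1 to 11, 0 to 0 and 4 to 10. The ratio against RNA called 30 to 31 members, and the core to cap log2 quotient was 0.277 to 0.300.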
